A study of Mus musculus with 3 samples.

Results

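The comparison of C3H10T1/2 cells carrying Venus-Mkx with C3H10T1/2 cells carrying Venus rests on 2 of the 3 arrays of the series, 1 array on each side. C3H10T1/2 is an established mouse mesenchymal cell line that can be turned towards bone, cartilage, fat and muscle. One culture received a retroviral pMIGR vector with the coding sequence of Venus, a yellow fluorescent protein, and the other received the same vector with Venus-Mkx. Virus was made in PLAT-E packaging cells and the transduced cells were kept in puromycin, and the array of C3H10T1/2 cells that carry no vector is given beside both. All cells were grown in the same serum-containing medium, no further treatment is named, and the sources used here do not say whether a transduced culture was a single clone. Members were taken by the sample titles, and all 45101 probe sets of the array were read, of which 34945 were paired with exactly 1 gene symbol and stood for 18193 genes. With 1 array per condition there is no replicate error, so every difference is a difference between these arrays and no p-value is given.

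Mkx (Mohawk) is a homeobox transcription factor of the TALE class, related to the Iroquois factors, and it is best known from tendon and ligament, where it is needed for thick collagen fibrils. Tendon and ligament cells arise from mesenchymal progenitors that can also make cartilage, and their matrix is built from type I collagen with smaller collagens and leucine-rich proteoglycans that set the width of the fibrils. The question of the comparison was which genes differ when Mkx is overexpressed in such progenitors.

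Values are log2 probe set values. Where 3 values are given for a gene, they stand in the order untransfected C3H10T1/2, Venus and Venus-Mkx, and a difference is the Venus-Mkx value minus the Venus value on the log2 scale, so that 1 means 2-fold. Mkx itself, read by a single probe set, had values of 6.88, 7.43 and 2.71, so it was lowest on the array that should hold most of it. The floor, the median of all values on the 3 arrays, was 4.34, and values below it are taken as too low to rank, so Mkx was at least 8.48-fold lower than on the Venus array. No source used here places this probe set inside or outside the Mkx sequence that the vector carries, and a probe set outside it would not read the transgene. The array is therefore called the array labelled Venus-Mkx, and every direction below follows that label. Of 13 measured TALE homeobox genes 4 were at least 2-fold lower, and besides Mkx these were Tgif1, Irx3 and Irx5. Tgif1, a repressor of Smad-driven transcription, read 7.96, 7.88 and 4.76, and the Iroquois genes Irx3 and Irx5 differed by −2.61 and −1.15. Pknox2 was the higher member, with 4.17, 4.02 and 5.93.

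The cells on all 3 arrays carried the marker genes of mesenchymal cells. Vim (vimentin) read 13.45, 13.47 and 13.03, and S100a4 (fibroblast-specific protein) 13.33, 13.41 and 13.14. Among 13 measured mesenchymal markers, Thy1, Twist2 and Col1a1 were at least 2-fold higher on the array labelled Venus-Mkx and none was lower. All 10 lymphoid and mast cell markers on the array were below the floor, as were 11 of 16 macrophage markers, among them Ptprc with 2.58, 2.54 and 2.33, and Adgre1, which had the same value of 2.72 on all arrays. The summed linear level of the macrophage markers was 257 in untransfected cells, 315 in Venus and 569 in Venus-Mkx, against 325 if all members stood at the floor, and the 3 members above 2-fold were Mpeg1 (2.63, 2.91 and 6.83), Lyz2 (4.39, 5.14 and 7.30) and Csf1r (4.45, 5.39 and 6.62). The other probe sets of Csf1r differed by 0.79 and 0.21. The other measured macrophage markers, Cd14 and Laptm5, differed by −0.50 and 0.19. Of endothelial markers 3 of 12 were measured, Egfl7 (0.17), Tek, at least 3.06-fold higher, and Erg, which read 4.81 in Venus and 2.81 in Venus-Mkx, and of epithelial markers 2 of 12, Epcam (0.57) and Krt5 (0.00). Neural and Schwann cell markers were measured in 5 of 11 cases, Stmn2 (8.04 and 10.20 in Venus and Venus-Mkx), Tubb3 (4.82 and 6.38), S100b (6.33 and 3.74), Map2 (9.57 and 9.61) and Sox10 (4.35 and 4.55). Control probe sets at both ends of a transcript were read on each array: the difference between the 3′ and the 5′ probe set of Gapdh was −0.016, 0.10 and 0.16, and that of beta-actin 0.46, 0.50 and 0.65. None of the 56 measured control probe sets differed by 2-fold.

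Of 18193 genes, 11124 reached the floor on at least 1 of the 2 arrays and are called measured. Most lay close together: 8044 (72.3%) lay within 1.5-fold, 1263 had exactly the same value on both arrays, and the median difference was 0. At least 2-fold higher on the array labelled Venus-Mkx were 829 genes, 7.45% of those measured, and at least 2-fold lower were 741, or 6.66%. At 5-fold the counts were 247 (2.22%) and 177 (1.59%). The 2-fold shares, 7.45% higher and 6.66% lower, are those to set beside the counts of each gene list below. For 376 genes the Venus value, and for 227 genes the Venus-Mkx value, was below the floor, so the size of their difference is a lower limit, written as "at least", and counts of higher and lower genes use the values as they stand. With such values raised to the floor, 753 genes were still higher and 694 lower by 2-fold or more. The share of genes above 2-fold was 13.1% in the fifth of genes with the lowest mean level and 4.54% in the fifth with the highest. Many genes are read by several probe sets, which serve as a second reading of the same RNA. Of 323 higher genes with another measured probe set, all other probe sets lay on the same side for 309 (95.7%), and of 371 lower genes for 349 (94.1%). Ncam1 and Pigt were the exceptions in which another probe set was at least 2-fold apart in the opposite direction. All other probe sets reached 2-fold on the same side for only 199 of the higher genes (61.6%) and 216 of the lower (58.2%). Another probe set was counted when it reached the floor on either array.

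**Figure D1:**
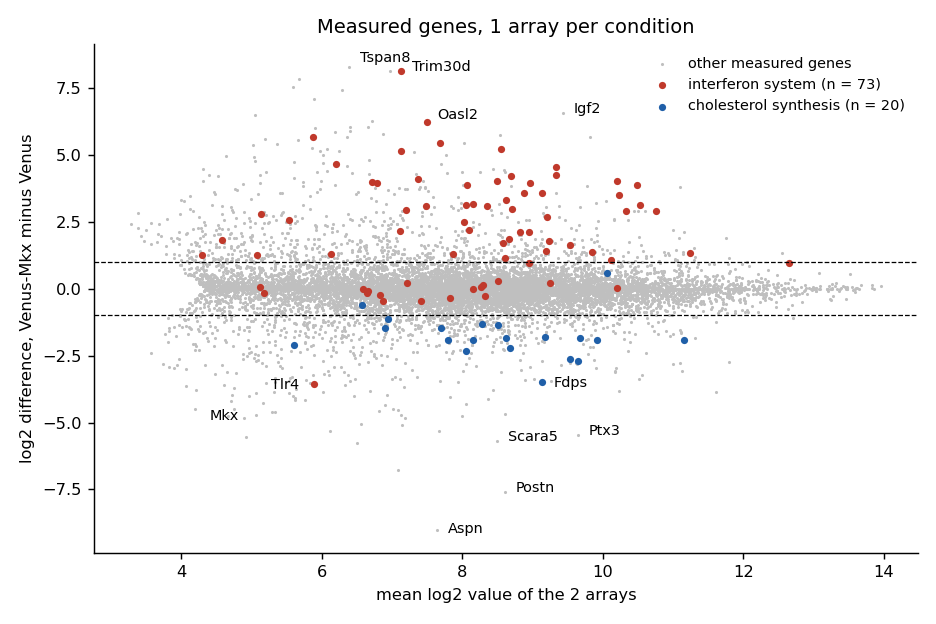
Venus-Mkx minus Venus on the log2 scale (vertical axis) against the mean log2 value of both (horizontal axis) for 11124 measured genes, each a point. Red points are 73 genes of the interferon system, blue points 20 genes of cholesterol synthesis, and dashed lines mark 2-fold; all but 2 of the blue points lie below the lower line.

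The largest differences among genes at or above the floor on both arrays were spread over growth factors, interferon-induced genes and secreted matrix proteins. Igf2, which encodes insulin-like growth factor 2, led the higher genes with 6.38, 6.16 and 12.70, a 92.9-fold difference, and Igfbp2, which encodes an IGF-binding protein, read 6.90, 6.99 and 12.65. Xdh, the gene of xanthine dehydrogenase in purine breakdown, read 3.97, 5.32 and 10.74, and Srgn, the gene of the proteoglycan serglycin, 4.16, 4.77 and 9.86. Untransfected and Venus cells lay within 2-fold of each other for these genes, except for Xdh. The remaining 6 of the 10 highest were Oasl2, Ly6e, Gbp6, Trim30a, Zbp1 and Psmb8, with differences from 6.21 down to 4.99, and all are genes known to be induced by interferon. Among genes below the floor in Venus, F13a1, which encodes coagulation factor XIII chain A, was at least 102-fold higher, the tetraspanin gene Tspan8 at least 72.7-fold, and the neurexophilin gene Nxph2 at least 37.9-fold. All 5 probe sets of Tspan8 had a higher value on the array labelled Venus-Mkx. The weakest read 2.13 in Venus and 4.17 in Venus-Mkx, below the floor on both, so its direction cannot be ranked.

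At the other end stood genes that the control cells carried at high level. Postn, which encodes periostin, read 11.92, 12.39 and 4.81, a 191-fold difference, and Aspn, which encodes the fibril-binding proteoglycan asporin, 11.62, 12.14 and 3.14, at least 223-fold. Scara5, a ferritin receptor gene, read 11.54, 11.35 and 5.65. Ptx3, which encodes the soluble pattern-recognition protein pentraxin 3, read 12.70, 12.37 and 6.92. Adamtsl3, Calcrl, Ddah1, Dpysl3, Mme, Cavin2 and Filip1l followed, from −5.31 to −4.57, and include the receptor subunit of adrenomedullin (Calcrl), a membrane metalloprotease (Mme) and a caveola protein (Cavin2). Adm, which encodes adrenomedullin itself, the ligand of the Calcrl receptor, was also lower, with 8.94, 9.08 and 4.04. Sorbs2, an actin adaptor gene, was at least 69.8-fold lower, Pappa2 at least 33.1-fold and Smoc2, a matricellular protein gene, at least 21.5-fold. Untransfected and Venus cells were within 2-fold of each other for all genes of this paragraph except Pappa2, with 10.47 and 9.39, and Smoc2, with 7.22 and 8.77.

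The interferon system held more higher genes than any other list. Interferons are secreted on virus sensing and act through receptors and STAT and IRF transcription factors on genes whose products block virus replication and present antigens. Many of these genes carry an interferon-stimulated response element close to their start, and these promoters are printed because the genes moved together. The last 120 bases before the gene start come from RefSeq on GRCm38.p6 and are read 5′ to 3′ on the strand of the gene. They are given for 4 higher interferon-system genes with large differences. A window was printed only if it held the core AAANNGAAA, where N is any base, on either strand. That all 4 hold it was therefore fixed by the choice and is no result. Promoters of some genes were not considered for printing, so the 4 are examples and not a full ranking by size of difference. Capitals mark the matches. Trim30d lies at chr7:104507850-104507969 on the minus strand and Trim30a at chr7:104465194-104465313 on the minus strand. Gbp3 lies at chr3:142559924-142560043 and Gbp7 at chr3:142530216-142530335, both on the plus strand.
Trim30d: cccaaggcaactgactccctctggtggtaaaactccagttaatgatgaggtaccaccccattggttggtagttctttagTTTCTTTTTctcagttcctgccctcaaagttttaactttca
Trim30a: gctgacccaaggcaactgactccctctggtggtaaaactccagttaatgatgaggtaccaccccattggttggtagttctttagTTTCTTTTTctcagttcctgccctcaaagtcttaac
Gbp3: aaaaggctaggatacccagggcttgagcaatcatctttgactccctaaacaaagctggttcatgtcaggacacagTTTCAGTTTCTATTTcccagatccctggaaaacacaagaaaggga
Gbp7: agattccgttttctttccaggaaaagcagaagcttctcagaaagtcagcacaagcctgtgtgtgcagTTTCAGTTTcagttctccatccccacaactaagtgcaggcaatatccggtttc

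The matches began 41 bases before the start in Trim30d, 36 in Trim30a, 45 and 39 (overlapping) in Gbp3 and 53 in Gbp7. Trim30d and Trim30a are neighbouring copies whose windows share most of their letters, so their probe sets may share target RNA. Windows of 250 bases before and 50 after the start were at hand for 9038 measured genes, some with several windows, and a gene was counted when any of them matched. All shares are of genes with a window. The core was found in 32 of 55 interferon-system genes (58.2%), against 9.16% of all measured genes, 23.1% of 173 genes at least 5-fold higher and 18.5% of 130 genes at least 5-fold lower. The letters of a TATA box, TATAAA, were in 16.2% of the genes at least 5-fold higher and 25.4% of those at least 5-fold lower, against 8.69% of all. A match is a description of the letters and no shown binding site.

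Across the interferon system 53 of 73 measured genes were higher by 2-fold or more and 1 was lower, with a median difference of 2.15, where 7.45% of all measured genes were higher and the overall median was 0. The genes of the secreted interferons were below the floor on all arrays: Ifnb1 read 3.08, 3.04 and 3.04, Ifna4 had the same value of 2.47 on all arrays, and Ifng was near 2.0 on each. None of 5 measured receptor genes differed by 2-fold, with 0.05 for Ifnar1 and 0.20 for Ifnar2, the chains of the type I interferon receptor. The probe set of Irf3, a factor that acts early after virus sensing, differed by 0.15, and those of its kinase Tbk1 and the adaptor Mavs by 0.01 and −0.29.

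Of 16 measured sensors and adaptors 8 were higher. Zbp1, a sensor of Z-form nucleic acid, read 4.55, 4.55 and 9.70, and Dhx58, which encodes the RNA sensor relative LGP2, 3.73, 5.32 and 9.41. Ifih1, the gene of the RNA sensor MDA5, read 5.28, 7.10 and 10.65, and Ddx58, that of RIG-I, 7.04, 8.35 and 10.12. Of the 5 that lay below Venus, only Tlr4, the gene of the endotoxin receptor, passed 2-fold. Tlr4 read 7.59, 7.67 and 4.12, at least 10.0-fold lower, while Tlr3, which senses double-stranded RNA, was higher by 1.29. Of 9 measured transcription factors 5 were higher, led by Irf7 (4.13, 4.72 and 8.71), with Stat2 (2.15), Irf1 (2.12) and Irf9 (1.84), and Nlrc5 was at least 2.20-fold higher.

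Antiviral effector genes were higher in 32 of 35 measured cases, with a median difference of 2.93. Oasl2 read 2.58, 4.39 and 10.60, Cmpk2, which encodes a mitochondrial nucleotide kinase, 2.77, 3.04 and 8.70, and Rsad2, the gene of viperin, 4.02, 3.87 and 8.53. These 3 genes were near or below the floor in Venus cells. Another pattern was shown by Usp18, with 2.42, 7.22 and 10.20, and Ifit1, with 2.90, 8.48 and 11.97, which were already well above the untransfected cells on the Venus array. All 8 measured guanylate-binding and immunity-related GTPases were higher, by a median of 4.11, from Irgm1 (8.72 to 10.35) to Gbp6 (4.97 to 10.40). As a list, the interferon system was also higher on the Venus array than in untransfected cells, by a median of 0.61, and its Venus-Mkx median against untransfected cells was 3.33. The macrophage markers that moved on the same array are given above, and their part in this result was not tested. In a culture, a change in the number of cells that make a transcript and a change of its level in each cell cannot be told apart.

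**Figure D2:**
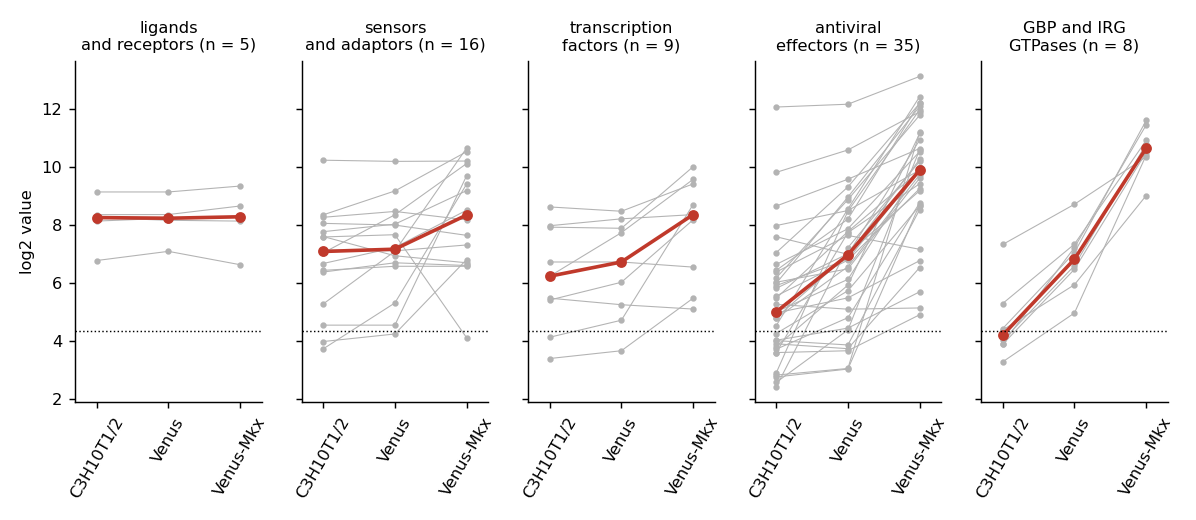
Log2 values of the measured interferon-system genes on the 3 arrays, by role; each grey line is a gene, the red line is the median over the genes, and the dotted line is the floor of 4.34. Ligands and receptors stay level, with a median difference of 0.05 between Venus and Venus-Mkx, while all 8 GTPases climb over the 3 arrays.

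Genes of antigen presentation by MHC class I were higher in 11 of 15 measured cases, with a median difference of 2.14. Psmb8, Psmb9 and Psmb10, which encode the catalytic subunits of the immunoproteasome, read 5.27 and 10.26, 5.87 and 9.29, and 7.67 and 10.72 in Venus and Venus-Mkx. They were the only members of the list of 37 measured proteasome subunit genes that differed by 2-fold. That is 8.11% of the list, near the 7.45% of all measured genes that were higher. The genes of the subunits they replace, Psmb5, Psmb6 and Psmb7, differed by −0.18, −0.07 and 0.17, and the median over the list was −0.07. Psme1, a proteasome activator gene outside that list, was higher by 2.20. The peptide transporter genes Tap1 and Tap2 differed by 2.51 and 3.02, and Tapbp, which encodes tapasin, by 2.90. B2m, the gene of the light chain of MHC class I, was at 12.14, 12.46 and 12.31. The heavy chain genes H2-D1 and H2-M3 were among the higher members, by 1.54 and 1.16. Of the class II genes only H2-DMa and Cd74 were measured, with differences of 0.00 and 0.75.

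Chemokines, acute phase proteins and complement genes differed in both directions. Cxcl10, an interferon-induced chemokine gene, read 3.78, 4.27 and 9.06, Ccl5 3.83, 4.41 and 6.67, and Ccl2 6.65, 7.23 and 9.23. Cxcl12, the chemokine gene that stromal cells use to hold blood progenitors, was lower, with 12.58, 12.67 and 9.58. Over 28 measured chemokine and cytokine genes 9 were higher and 4 lower, with a median of 0.21. Il1rn, which encodes the natural blocker of the IL-1 receptor, read 10.97, 10.34 and 6.54. Of 26 measured interleukins and interleukin receptors, 8 were higher and only Il1rn was lower, among them Il18bp (4.87, 4.54 and 8.82), which encodes a soluble blocker of IL-18, and Il7, at least 7.50-fold higher from below the floor. The acute phase genes Lcn2, Chil1 and Cfb were at least 50.6-fold, 45.3-fold and 42.9-fold higher, from below the floor in both controls. The complement genes C1ra (7.03, 7.54 and 11.13) and Serping1 (5.25, 5.42 and 9.45), which encode a C1 protease and its inhibitor, were higher together, whereas Masp1, a protease gene of the lectin branch, read 10.96, 10.73 and 8.85. Of 10 measured NF-κB pathway genes 2 were higher, Bcl3 (4.65, 4.12 and 7.83) and Birc3 (1.07), and Nfkbia, an inhibitor gene that is itself an NF-κB target, differed by 0.66.

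Cholesterol synthesis was the list with the largest share of lower genes. Cells make cholesterol from acetyl-CoA through mevalonate, squalene and lanosterol, and the transcription factor SREBP2 raises the enzymes together when sterol is scarce. Of 20 measured genes 18 were at least 2-fold lower on the array labelled Venus-Mkx and none was higher, where 6.66% of all measured genes were lower, and the median was −1.88. All members lay above the floor on every array, and the Venus value was at or slightly above the untransfected one. From the early steps, Hmgcs1 read 11.58, 12.11 and 10.18, Mvk 7.41, 7.50 and 6.38, and Pmvk 8.48, 8.75 and 6.83. In the isoprenoid steps the differences were larger, with 10.83, 11.01 and 8.30 for Idi1 and 10.58, 10.87 and 7.40 for Fdps, the lowest of the list. Fdft1 and Sqle, which encode the squalene synthase and squalene epoxidase, differed by −1.91 and −1.84. From lanosterol to cholesterol, Cyp51 differed by −1.81, Msmo1 by −2.61, Nsdhl by −1.85, Sc5d by −2.22 and Dhcr7 by −1.48. The regulators Srebf2 (8.33, 8.44 and 6.97) and Insig1 (8.71, 9.10 and 7.19) were lower as well. The members that did not pass 2-fold were Mvd, with −0.62, and Ebp, a sterol isomerase gene, with 9.67, 9.77 and 10.35. Abca1, which encodes a cholesterol exporter, was not in the list and was looked up after the list was seen. It read 4.38, 6.39 and 10.80, so it also differed between the controls, and its relation to the list was not tested. The core of the sterol regulatory element, TCACNCCAC, was searched after these values were seen. It was found for 1 of 16 genes of the list with a window and for 1.35% of all measured genes with a window.

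Fatty acid genes near this pathway were lower in part. Scd1, the gene of a fatty acid desaturase, read 9.66, 9.67 and 6.19. Fads1, Fads2 and Fads3, desaturase genes that lie side by side, differed by −1.95, −1.75 and −1.04, and Fasn and Acaca, of fatty acid synthesis, by −0.73 and −0.33. Among 21 measured fat genes 6 were higher and 3 lower, with a median of 0.31. Fabp4, a fatty acid carrier of fat cells, read 7.38, 7.04 and 2.28, while Lpl, which encodes the lipase of blood triglyceride, read 6.77, 7.03 and 10.95 and Cebpb 10.40, 10.08 and 12.21. Pparg, the main transcription factor of fat cells, differed by −0.59.

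Among cell cycle genes those of DNA replication lay lowest as a group. Of 24 measured genes of DNA replication all 24 lay below Venus and 10 were at least 2-fold lower, with a median of −0.88. Cdc6, which loads the replicative helicase, read 8.17, 8.16 and 6.41. The helicase genes Mcm3, Mcm6 and Mcm4 differed by −1.47, −1.30 and −1.27, and Mcm7, the least changed of the list, by −0.16. None of 25 mitosis genes differed by 2-fold, 19 lay below Venus and their median was −0.12, with −0.17 for both Mki67 and Top2a. Among 22 measured cyclins, cyclin-dependent kinases and inhibitors 13 lay below Venus. The S-phase cyclin gene Ccne2 (9.13, 9.19 and 7.66), the inhibitor gene Cdkn2b (6.82, 6.87 and 5.23) and Cdk6 were lower, and E2f2 and Cdkn2c were higher. At a 1.5-fold threshold 19 of the replication genes were lower, and at 3-fold 1 was. Of 15 measured p53 targets 13 lay below Venus, with a median of −0.74, and Perp (6.31, 6.80 and 2.61), Phlda3 (9.72, 9.71 and 7.93) and Zmat3 were at least 2-fold lower, while Cdkn1a differed by −0.87.

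**Figure D3:**
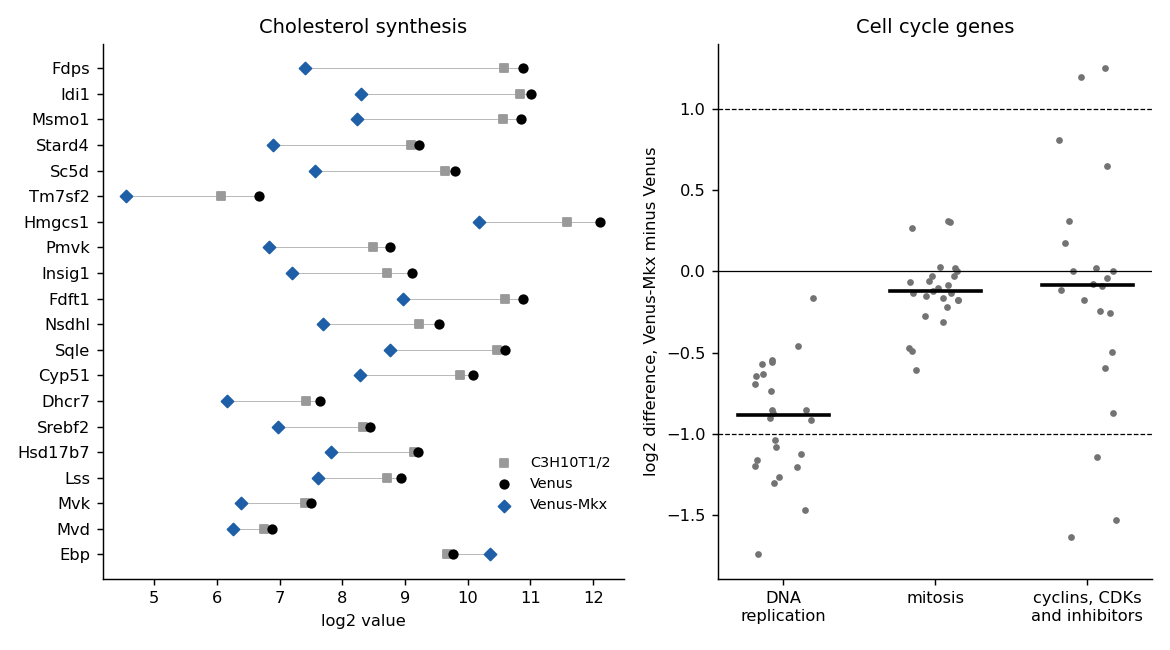
Left, log2 values of 20 cholesterol synthesis genes on the untransfected (grey squares), Venus (black circles) and Venus-Mkx (blue diamonds) arrays; 18 of the diamonds lie at least 2-fold to the left of the circles. Right, log2 difference for 71 cell cycle genes by role, with bars at the medians of −0.88, −0.12 and −0.09 and dashed lines at 2-fold.

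Genes of the basic machinery of the cell and of endoplasmic reticulum stress differed little. None of 75 measured genes of oxidative phosphorylation, of 39 ribosomal proteins, of 18 endoplasmic reticulum stress genes and of 11 housekeeping genes differed by 2-fold. Their medians were 0.01, 0.00, −0.13 and −0.15. Of 21 genes of the integrated stress response 2 were lower, or 9.52%, against 6.66% of all measured genes. These were Trib3 and Slc7a5, which encodes an amino acid transporter. Cebpb was higher, and the median of the list was −0.60. Of 17 measured NRF2 targets and metallothioneins 7 were lower, among them the glutathione transferase Gstm2 (9.42, 9.63 and 6.75), Nqo1 (9.83, 9.17 and 7.70) and Mt2 (8.15, 8.22 and 6.29), whereas Hmox1, the gene of haem oxygenase, was higher with 7.82, 7.68 and 10.23. Of 21 measured lysosome genes 4 were higher, none was lower and the median was 0.39, with Gm2a (6.16, 6.78 and 10.61), which encodes the activator of ganglioside breakdown, first.

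In the insulin-like growth factor system, 5 of 17 measured genes were higher and 6 lower, in some of the largest steps of the comparison. Igf2 stood 92.9-fold above Venus, and its other probe set read 2.92, 2.72 and 5.04. Igf1 was lower, with 8.95, 8.72 and 6.62, and so was Igf2r, the receptor that takes Igf2 up for breakdown, with 9.82, 9.77 and 7.97. The signalling receptor gene Igf1r differed by −0.71 and Insr by 0.68. Of the binding proteins, Igfbp2 and Igfbp3 (3.48, 3.39 and 9.42) were higher, Igfbp6 was higher by 1.54, and Igfbp7 was lower by −1.24. Pappa and Pappa2, which encode proteases that cut IGF-binding proteins, were lower, from 6.59 and 9.39 in Venus to values below the floor. Stc1, whose product blocks such proteases, read 3.58, 4.02 and 6.45. Igf2 and Igf2r are both imprinted genes, and among 16 measured imprinted genes 5 were higher and 4 lower. Peg3, a zinc finger gene expressed from the paternal copy, read 4.01, 2.91 and 8.89, and Airn, the antisense RNA that silences Igf2r on the paternal copy, 7.67, 7.61 and 4.55. The RNA gene Meg3 differed by 1.84 and Grb10, a growth inhibitor, by −1.40.

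Wnt ligands bind Frizzled receptors, and R-spondins strengthen the signal by keeping these receptors on the surface. The 41 measured Wnt pathway genes held 11 higher and 8 lower, with a median of 0.00. Among 15 receptor genes, Fzd1 (9.90 and 11.06 in Venus and Venus-Mkx), Fzd2 (9.68 and 10.91) and Fzd7 (9.13 and 10.39) were higher, while Fzd4 (−2.30), Fzd6 (6.49 and 5.07), Fzd5 and Fzd9 were lower. The R-spondin genes also parted, with 2.47, 2.33 and 7.71 for Rspo1 and 11.16, 10.14 and 7.49 for Rspo3. The receptor of R-spondins, Lgr4, was lower by −1.41. Of 10 measured ligand genes, R-spondins included, 5 were higher and 1 was lower. After Rspo1 came Wnt5b (5.56, 4.83 and 7.01) and Wnt4 (4.95, 5.03 and 6.87), and the secreted inhibitor Sfrp1 read 6.30, 5.88 and 8.42. Ctnnb1, the gene of β-catenin, differed by −0.07.

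The fibroblast growth factor list had no higher member, and 5 of 14 measured genes were lower, with a median of −0.49. Fgf7, a mesenchymal ligand for epithelial receptors, read 10.73, 10.99 and 7.54. Fgfr2 and Fgfr3 differed by −1.14 and −1.26, and the feedback inhibitor and target genes Dusp6 and Etv5 by −1.36 and −1.16, while Fgfr1 had 9.10, 9.09 and 9.09. With all probe sets of a gene averaged, 2 genes of the list were lower. Ligand genes of the PDGF and VEGF families and of hepatocyte growth factor lay on both sides: Pdgfb (4.87, 4.40 and 6.84), Pdgfc (7.91, 8.52 and 10.71) and Vegfc (2.99, 4.18 and 7.30) were higher, and Pdgfd (−1.36), Vegfd (8.28, 8.56 and 5.80) and Hgf (7.23, 7.78 and 5.29) were lower. The receptor genes Pdgfra and Pdgfrb differed by −0.69 and −0.10.

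Semaphorins, ephrins, Slits and netrins guide axons and vessels and set cell borders in connective tissue. Of 39 measured ligand, Eph, plexin and Robo genes of these families 13 were higher and 1 was lower, with a median of 0.48. The neuropilins, semaphorin receptors that also bind VEGF, were counted with the VEGF genes: Nrp2 was lower, with 7.56, 8.76 and 7.03, and Nrp1 differed by 0.24. Sema3c read 9.54, 7.86 and 11.68, Sema3b 5.77, 6.36 and 9.38, and Sema5a 3.46, 4.33 and 7.32. Of the Eph receptor genes, Ephb6 read 4.81, 5.57 and 9.37, Epha7 5.44, 6.23 and 9.63, and Epha3 2.40, 2.08 and 6.55, while Epha4, the lower member, dropped below the floor from 4.98. With the floor at the 75th percentile 7 genes were higher, and with all probe sets of a gene averaged 8. Nuclear receptors were higher in 8 of 26 measured cases and lower in none, with a median of 0.35. Esr1, which encodes oestrogen receptor α, stood apart with 3.13, 3.46 and 8.68, at least 20.3-fold, a further probe set read 2.54, 2.66 and 5.52, and the last stayed below the floor. Rora, Nr1d1, Nr1d2, Rxrb and Vdr were higher by 1.03 to 1.37, and Rorb and Nr3c2 from below the floor. With all probe sets averaged 5 nuclear receptors were higher, and at 3-fold 1.

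**Figure D4:**
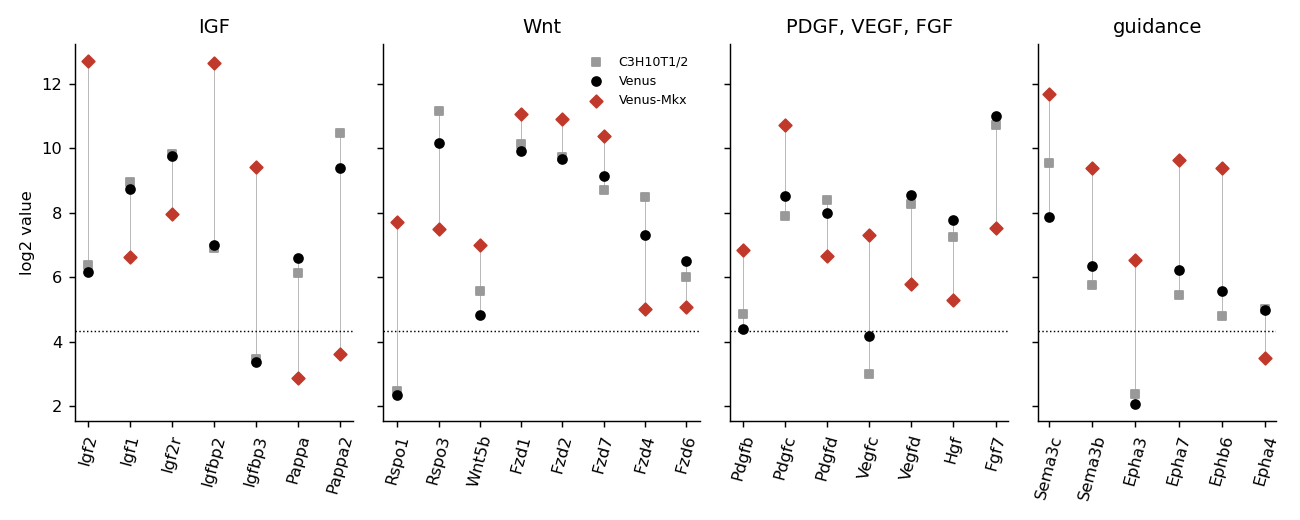
Log2 values of genes of 4 signalling groups on the untransfected (grey squares), Venus (black circles) and Venus-Mkx (red diamonds) arrays; the dotted line is the floor of 4.34. Within the IGF, Wnt and PDGF, VEGF and FGF groups, genes of 1 family lie on opposite sides of Venus, as Rspo1 (2.33 to 7.71) and Rspo3 (10.14 to 7.49) do.

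Transforming growth factor β and bone morphogenetic protein genes made small steps as lists, with medians of 0.06 and −0.06 over 27 measured genes each. In the TGFβ list 5 genes were higher and 3 lower. The ligand gene Tgfb1 was higher by 1.14, the receptor genes Tgfbr2, Tgfbr3 and Acvr2a by 1.02, 1.34 and 1.63, and the signal transducer gene Smad3 by 1.34. Lower were the repressor gene Tgif1, given above, the latent TGFβ-binding protein gene Ltbp1 (−1.18) and the activin receptor gene Acvr1b (−1.01). In the BMP list 3 genes were higher and 5 lower. The ligand Gdf5, which marks forming joints, read 3.14, 3.03 and 7.37, Id4 was higher by 2.92 and Bmp1, a protease that carries a BMP name, by 1.02. The ligand gene Bmp4 read 10.97, 11.00 and 9.33, and the BMP target genes Id1, Id2 and Atoh8 differed by −1.22, −1.03 and −1.83. Grem1, which encodes a secreted BMP blocker, read 7.62, 9.15 and 7.62. In the Notch list 1 of 15 measured genes was lower, the ligand Jag1 (10.39, 9.99 and 8.38), and none was higher. That is 6.67%, near the 6.66% of all measured genes that were lower. In the Hedgehog list the co-receptors parted, Cdon with 7.99, 7.50 and 9.67 and Boc with 8.33, 8.11 and 6.70.

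Contractile and cytoskeletal genes were more often lower than higher. Of 26 measured smooth muscle and actin genes 8 were lower and 1 higher, with a median of −0.54. Actg2, an enteric smooth muscle actin gene, read 8.13, 7.77 and 5.17, Vcl, which encodes vinculin, 11.80, 11.93 and 10.29, and Myl9, a myosin light chain gene, 10.18, 10.55 and 9.26. The exception was Mylk, which encodes the kinase of that light chain, with 7.11, 7.82 and 10.51. In the Hippo list, F3 (tissue factor, 10.11, 10.42 and 7.50), Ccn2 (12.44, 12.49 and 9.70) and Ccn1 (11.41, 11.93 and 10.29) were lower, whereas Ankrd1, another YAP target, was higher with 8.61, 8.79 and 10.60, and Yap1 differed by 0.15. Over 19 measured genes 7 were lower and 2 higher. Striated muscle genes were lower in 8 of 18 measured cases and higher in 2, with a median of −0.93: Tnnt2 read 5.70, 6.20 and 3.09, the myogenic factor Myog 5.53, 6.15 and 3.76, and Acta1 6.64, 7.28 and 5.28, against Trdn, which encodes triadin of the calcium store, with 2.20, 1.81 and 9.35, and Tnnc1 with 7.07, 7.31 and 9.96. With the floor at the 75th percentile 2 striated muscle genes were lower. Of 19 measured immediate early genes 5 were lower, led by Klf4 (11.10, 10.95 and 8.77), Klf2 (9.43, 9.39 and 7.74) and Fosl2, and Ier3 was higher with 8.91, 9.15 and 12.04. Their median was −0.59 against Venus 0.21 against untransfected cells and 0.00 against the mean of both, so its direction depended on the control.

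The matrix differed gene by gene, with collagens, proteoglycans, elastic fibre proteins and proteases on both sides. Of 27 measured collagen genes 7 were higher and 9 lower. Besides Col1a1 (11.52, 11.88 and 13.22), the higher genes included Col23a1, a membrane collagen gene, with 3.90, 3.67 and 8.81, Col11a2, with 3.98, 4.02 and 6.88, and Col16a1, with 8.40, 8.40 and 10.68. Col3a1, of the type III collagen that mixes with type I in fibrils, read 13.10, 13.53 and 9.68, Col8a1 10.66, 8.69 and 5.40, and the basement membrane genes Col4a1 and Col4a2 11.03, 11.21 and 8.53, and 9.54, 9.71 and 7.85. Among 16 measured basement membrane genes Agrn, the gene of the proteoglycan agrin, was the highest, with 7.82, 7.56 and 10.04.

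Leucine-rich proteoglycans of 10 measured genes gave 3 higher and 5 lower. Dcn (decorin) read 4.06, 6.07 and 9.12 and Fmod (fibromodulin) 11.71, 10.54 and 12.07, while Omd (osteomodulin) read 8.88, 9.84 and 5.79, Ogn (osteoglycin) 11.97, 12.17 and 8.94 and Prelp 10.59, 10.60 and 7.17. Bgn (biglycan) differed by −0.03. In the elastic fibre list Fbln1 (3.81, 3.81 and 7.65) and Efemp1 (6.24, 8.03 and 10.72) were higher and Fbln2 (11.15, 10.82 and 7.99) and Fbln5 (12.56, 12.40 and 9.59) lower, so the fibulin family stood on both sides, and Eln (elastin) differed by 0.26. Tnxb, which encodes tenascin-X, was at least 40.4-fold higher, and of the other tendon and ligament genes Htra3 (5.44, 5.66 and 8.29) and Comp (5.69, 5.01 and 7.28) were higher and Tnmd, the gene of tenomodulin, lower with 10.74, 9.70 and 8.01. Scx, the gene of the tendon transcription factor scleraxis, read 5.05, 5.01 and 7.26 and Tnc (tenascin-C) 9.50, 8.76 and 10.43, while Col14a1 was at least 1.27-fold higher, with 2.72 in Venus and 4.69 in Venus-Mkx. Over the tendon and ligament list 11 of 25 measured genes were higher and 6 lower, with a median of 0.70. That median was 0.35 with values below the floor raised to it, and 0.17 when all genes on the array were taken. The cartilage list had 3 higher and 6 lower of 13, with a median of −0.80, which was 0.00 with no floor. Sox9, the main transcription factor of cartilage, read 9.96, 9.27 and 8.24, and Prg4, which encodes the joint lubricant lubricin, read 3.91, 3.08 and 5.57.

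Enzymes that build or cut the matrix were also divided. Of 22 measured genes of collagen modification 4 were lower and 1 higher: Pcolce2 (10.40, 10.20 and 5.90), an enhancer of procollagen cleavage, the protease Tll1, the prolyl hydroxylase P4ha2 and the lysyl hydroxylase Plod2 were lower, and Bmp1, the procollagen C-proteinase, was higher by 1.02. Lox, which encodes lysyl oxidase, differed by −0.02. Mmp13, a collagenase gene, read 1.91, 1.81 and 8.28, at least 15.3-fold higher, and Mmp19 5.19, 5.34 and 7.71. The aggrecanase genes Adamts4 and Adamts5 moved apart, with 6.22, 7.05 and 9.79 for the first and 11.70, 11.82 and 9.41 for the second, and Adamts1 read 11.34, 11.73 and 8.61. Hs6st2 and Ext1, enzymes of heparan sulphate chains, differed by −2.97 and −2.16. Of 17 measured integrin genes, Itga1, a collagen receptor chain, was lower with 7.93, 7.39 and 4.87, and Gja1, the gene of connexin 43, was higher with 10.16, 10.80 and 12.70. Cdh2 (N-cadherin) read 10.81, 10.85 and 8.94.

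**Figure D5:**
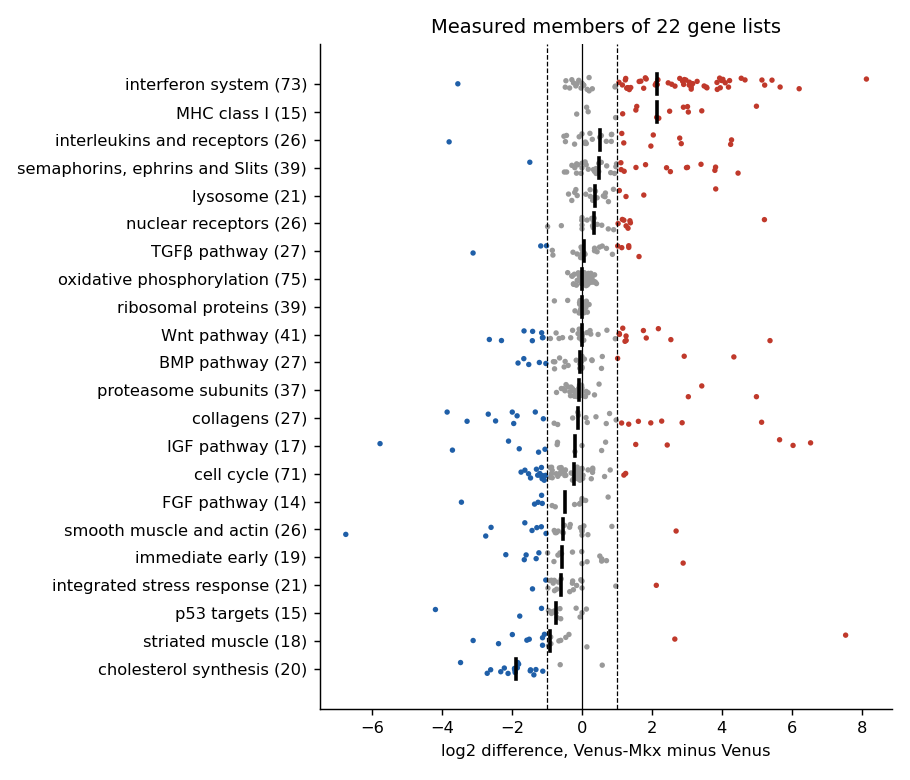
Venus-Mkx minus Venus on the log2 scale in 22 gene lists, measured members only, with the number of members in brackets. Each point is a gene, red for higher and blue for lower by 2-fold or more, and black bars are medians, which run from −1.88 for cholesterol synthesis to 2.15 for the interferon system.

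Genes called in the same direction also lay side by side. Along the RefSeq order of 11106 measured genes, 32 runs of 3 or more neighbours were called in 1 direction, 12 of them higher and 20 lower. Several were families of near-identical copies, where probe sets may share target RNA: the Ifit genes (Ifit2, Ifit3, Ifit1bl1, Ifit1bl2 and Ifit1), the guanylate-binding genes (Gbp7, Gbp3, Gbp2b and Gbp2), the Trim genes beside Usp17la (Trim34a, Trim12c, Trim30a, Trim30d) and 5 N-acetyltransferase genes (Nat8f3, Nat8f5, Nat8, Nat8f4 and Nat8f1), all of them higher. Some other runs also held members of a family, such as the caspase genes and the Fads desaturase genes. Psmb9, Tap1, Psmb8 and Tap2 lie together in the MHC and were higher by 2.51 to 4.99. Casp4 and Casp12, caspase genes of inflammation, were higher by 3.71 and 1.31, and Casp1 by at least 2.39-fold, beside the glutamate receptor gene Gria4. The matrix genes Ecm2, Aspn, Omd and Ogn were all lower. Omd and Ogn differed by −4.05 and −3.23, Aspn was at least 223-fold lower, and Ecm2 went from 4.77 to 3.76, which is at least 1.35-fold. Fads3, Fads2, Fads1 and Fen1 were lower by −1.04 to −1.95, and Ext1, Tnfrsf11b, Colec10 and Ccn3 were lower too. Tnfrsf11b, which encodes osteoprotegerin, the soluble blocker of osteoclast formation, read 8.40, 9.27 and 4.76. Phlda3, Tnni1, Tnnt2 and Pkp1 formed a further run of lower genes.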

How the data were processed

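RNA was hybridized to Affymetrix mouse genome arrays, 1 per condition, so no error could be computed and no test was run. The authors deposited log2 probe set values. The labels name RMA, without a version, and the methods MAS 5.0. Values were used as deposited. Venus-Mkx was compared with Venus over the 34945 probe sets with 1 symbol, leaving out 64 control probe sets, 932 with several symbols and 9160 with none. Each gene was represented by its brightest probe set, by the mean of all 3 arrays. The floor was the median of all values (4.34) and a measured gene reached it on either array. Below it, signal over background limits precision. Genes were called at 2-fold and 5-fold. The members and the 75 lists were chosen with earlier results of these data known. Named genes were Mkx, the 10 largest differences in each direction at or above the floor on both arrays, the 10 largest lower limits in each direction, up to 4 members of each list, all measured marker genes of other cell types, and genes in printed runs or with printed promoters. Further members were named after their values were seen. The calling rule was run on simulated data with little noise and with changes well beyond 2-fold, placed only in genes above the floor in Venus. That run does not test calls near 2-fold or of genes below the floor in Venus. Python 3.11.15, NumPy 2.4.6, pandas 2.3.3 and matplotlib 3.10.9 were used.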

Additional observations from a re-analysis of the deposited data

How the results depend on the processing

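The alternatives were the floor, the probe sets per gene, the scale, the control and the fold threshold. Against 829 higher and 741 lower genes at 2-fold, 538 were higher when the floor was the 75th percentile, 1482 and 1598 at 1.5-fold, 448 and 360 at 3-fold, and 1276 and 1379 when probe sets were counted, with 279 lower probe sets at 5-fold. With that floor 7 semaphorin, ephrin and Slit genes and 5 nuclear receptors were higher and 2 striated muscle genes lower. Over the mean of all probe sets these were 8 and 5 higher, and 2 FGF genes were lower, against 3 with untransfected C3H10T1/2 as control. At 1.5-fold 19 DNA replication and 13 striated muscle genes were lower, and at 3-fold 1 and 3, with 1 FGF gene lower and 1 nuclear receptor higher. The cause of these changes in count was not tested, other than the changed threshold or floor itself. Against untransfected cells the median of the immediate early genes turned to 0.21, and Itga8 (0.18) and Pcdh7 (0.48), lower against Venus, lay above 0. All other counts stayed within 1.5 times, but sizes were less stable: of 485 gene differences, each under up to 8 alternatives, 348 values moved beyond 1.5 times, 147 of them with untransfected cells as control, 125 with all probe sets of a gene averaged, 61 with the mean of both controls and 15 without probe sets marked as shared. Of 68 list medians 14 values moved, among them cartilage (0.00), SLRP proteoglycans (−0.03) and acute phase and complement (0.14) with no floor. With 1 array per condition no replicate could be left out. No paired analysis was possible because each condition has a single array.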

Other observations

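Probe sets with no gene symbol, or with several, were left out of the comparison. Of 10092 such probe sets 3312 reached the floor, and of these 186 were higher and 157 lower by 2-fold or more on the array labelled Venus-Mkx, 44 and 37 of them at 5-fold.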
